A study of Rattus norvegicus with 12 samples.

Results

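The early secretory pathway genes described here were chosen by symbol, from a list of 50 genes for signal recognition, the translocon, signal peptidase, the oligosaccharyltransferase, the COPII and COPI coats and their cargo receptors. The count table carried 48 of them among its 31368 genes, and 47 had enough counts to be tested among 16814 tested genes. They were measured in INS-1 832/3 cells, a wild-type rat insulinoma line that secretes insulin and stands in for pancreatic beta cells. Libraries were made from total RNA with a kit that reads transcripts near their poly(A) end. The study asked how an insult with IAPP (islet amyloid polypeptide, the hormone that beta cells release with insulin and that can aggregate) and pretreatment with urolithin B, a compound gut bacteria make from dietary ellagitannins, change gene expression. There were 3 libraries in each of 4 groups. One group received 50 uM urolithin B for 12 h and then 2 uM IAPP for 24 h, one received 2 uM IAPP for 24 h, one received 50 uM urolithin B for 12 h, and the control was left untreated. All groups were the same single cell line, and no library came from islets or animals.

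Insulin, IAPP and most other secreted proteins enter the secretory pathway while they are being made. The signal recognition particle (SRP) brings the ribosome to its receptor on the endoplasmic reticulum (ER), the Sec61 channel takes in the chain, signal peptidase removes the signal sequence and the oligosaccharyltransferase adds N-glycans. COPII vesicles carry cargo out of the ER, COPI vesicles return escaped proteins and receptors to it, and the unfolded protein response adjusts the amount of this machinery in beta cells.

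Library totals ran from 4828003 to 6681455 counts. The 4 libraries with replicate number 1, 1 of each group, stood apart from the other 8: they held 22139 to 22615 detected genes, against 19529 to 20201 in replicates 2 and 3, and mitochondrial rRNA took 6.52% to 8.83% of their counts, against 13.1% to 20.9%. Same-numbered libraries deviated together, chiefly because replicate 1 differed from the rest, so where blocking on that number changes a result, the blocked value stands beside it. Numbers 2 and 3 were not set apart in this way, so same-number pairs of these libraries follow the labels alone. Of 14 beta-cell markers, 13 passed the filter and 1, Neurod1, was listed at 0 in all 12 libraries. Markers of other cell types were low: the summed level of 7 exocrine and ductal markers was 10.8 to 21.0 CPM (counts scaled to a common library size) over the 12 libraries, with Cpa1 and Prss1 at 0, and that of 6 stromal, endothelial and immune markers was 4.45 to 80.6 CPM, with Col1a2 at 0. Of the other islet hormones Sst and Ppy were listed at 0, while Gcg, which encodes glucagon, reached 40.4 to 202.1 CPM in urolithin B + IAPP, 26.3 to 132.6 CPM in IAPP, 37.1 to 210.6 CPM in urolithin B and 18.5 to 98.5 CPM in control libraries.

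Of the 50 listed symbols, Srp54 and Srpr had no row of that name. The table carries Srp54a and Srpra, for which the RefSeq GRCr8 gene table gives Srp54 and Srpr as synonyms, and these were kept with the other pathway genes. Their log2 fold changes in IAPP against control were 0.01 ± 0.21 and -0.01 ± 0.27 (SE). Sec24b, a cargo adaptor of the COPII coat, was listed at 0 counts in all 12 libraries. Rab1b, Arf5, Tmed4, Atf6b and Creb3l1 of the other pathway genes were listed at 0 as well, so these zeros are not read as absence of the transcript. Among the 47 tested members the thinnest was Srprb with 18 to 44 counts per library, followed by Spcs3 with 49 to 119.

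Of the members only Rpn1 passed a test in any of 6 contrasts, and it did so with DESeq2 or with a replicate block in edgeR, but not with edgeR's unblocked test. By edgeR's quasi-likelihood test with Benjamini-Hochberg adjustment at 0.05, 0 of 47 members were called in IAPP against control, where 0.845% of all tested genes were called, and 0 of 47 in urolithin B + IAPP against IAPP, where 0.577% were. The counts were also 0 of 47 in urolithin B against control, in urolithin B + IAPP against control and in urolithin B + IAPP against urolithin B, with 0% of tested genes called in each. In the interaction, the IAPP effect after urolithin B minus the IAPP effect without it, 0 of 47 members and 0.0297% of tested genes were called. An unadjusted p under 0.05 was reached by 1 member in IAPP against control, where 10% of all tested genes reached it, by 1 in urolithin B + IAPP against IAPP (8.5%), by 1 in urolithin B + IAPP against urolithin B (1.67%) and by 1 in the interaction (5.4%), and by 0 in urolithin B against control (0.898%) and in the combined treatment against control (2.44%). In urolithin B cells against control the block called 0 members (0.00595% of tested genes), DESeq2 0 (0%) and DESeq2 with the block 0 (0.0297%). For urolithin B + IAPP against control the same fits called 0 (0.0714%), 0 (0.0238%) and 0 (0.303%), and against urolithin B 0 (0.0119%), 0 (0%) and 0 (0.0535%).

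Rpn1 encodes ribophorin I, an oligosaccharyltransferase subunit that helps present selected membrane proteins to the catalytic subunit. Its level was 347.3, 343.9 and 353.6 CPM in urolithin B + IAPP cells, 268.2, 271.9 and 279.1 CPM in IAPP cells, 342.2, 331.9 and 336.3 CPM in urolithin B cells and 337.0, 342.6 and 374.8 CPM in control cells. The 3 IAPP libraries were the lowest of the 12, and their range did not overlap that of any other group. In bulk RNA, fewer cells of a kind and less RNA per cell cannot be told apart. The log2 fold change of Rpn1 was -0.36 ± 0.09 (SE, n = 3 each) in IAPP against control, 0.777 of the control level, with a 95% interval of -0.57 to -0.16. The edgeR adjusted p was 0.108, and it was 0.0140 with the replicate block, where 7.83% of all tested genes were called. DESeq2 gave an adjusted p of 2.74e-07, with 2.97% of tested genes called, and 0.000900 with the block (6.55%).

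In urolithin B + IAPP against IAPP, a comparison that uses the same 3 IAPP libraries, the log2 fold change of Rpn1 was 0.35 ± 0.09, with a 95% interval of 0.15 to 0.55. The edgeR adjusted p was 0.177, and 0.0249 with the replicate block (5.24% of tested genes called). DESeq2 gave 1.24e-06, with 1.9% of tested genes called, and 0.00234 with the block (4.41%). Between urolithin B + IAPP and control cells the difference of Rpn1 was -0.01 ± 0.09, with an interval of -0.21 to 0.19, and between urolithin B and control cells it was -0.06 ± 0.09, with an interval of -0.26 to 0.14. The interaction was 0.41 ± 0.13 on the log2 scale, with an edgeR adjusted p of 0.628, or 0.119 with the replicate block (1.63% of tested genes called). DESeq2 called the interaction of Rpn1 with an adjusted p of 0.000739, or 0.0347 with the block, and called 0.672% and 1.71% of tested genes in these fits. The call of Rpn1 thus depends on the test, while its fold change in IAPP against control ran from -0.40 to -0.33 as each library was left out in turn.

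The groups were ordered differently in those partner subunits of Rpn1 that are in the member list. Rpn2, ribophorin II, was at 301.1, 414.2 and 439.1 CPM in urolithin B + IAPP cells, 283.2, 412.1 and 370.6 CPM in IAPP cells, 287.9, 431.0 and 376.4 CPM in urolithin B cells and 272.3, 349.8 and 317.9 CPM in control cells. The groups overlapped, and Rpn2 was higher in IAPP than in control libraries in all 3 same-number pairs, by 0.18 ± 0.20 on the log2 scale and with an edgeR adjusted p of 0.953. Ddost, a subunit of the catalytic core, and Stt3a, the catalytic subunit that works beside the translocon, were also higher in IAPP in 3 of 3 pairs without passing the test. Dad1, a small core subunit, was at 69.4, 137.9 and 129.4 CPM in urolithin B + IAPP cells, 78.5, 127.6 and 115.8 CPM in IAPP cells, 78.7, 105.9 and 132.2 CPM in urolithin B cells and 70.9, 134.1 and 124.1 CPM in control cells. Its replicate 1 libraries were lowest in every group. Stt3b, the alternative catalytic subunit, ran from 13.2 to 20.7 CPM over the 12 libraries. Of the 6 tested oligosaccharyltransferase genes outside the member list, 2 were lower in IAPP than in control in all 3 pairs (19.5% of all tested genes). Another 2 were higher (22.6%). Ostc was among the lower, and as with Rpn1, IAPP was its lowest group in every replicate number.

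Set against Rpn2 within a library, which needs no scaling between libraries, there were 115.4, 83.0 and 80.5 Rpn1 counts per 100 Rpn2 counts in urolithin B + IAPP cells, 94.7, 66.0 and 75.3 in IAPP cells, 118.9, 77.0 and 89.4 in urolithin B cells and 123.8, 97.95 and 117.9 in control cells. The IAPP value was below the control value and below the urolithin B + IAPP value of the same number in each of the 3 pairs. The urolithin B + IAPP values were below the control values in 3 of 3 pairs, and so were the urolithin B values. The ratio also carries differences of Rpn2, whose mean was 384.8 CPM in urolithin B + IAPP, 355.3 in IAPP, 365.1 in urolithin B and 313.3 in control cells. Mean Rpn1 was 348.3, 273.1, 336.8 and 351.5 CPM in the same order. As a share of all counts of the 6 subunits, Rpn1 took 37.0%, 29.0% and 29.9% in urolithin B + IAPP, 32.4%, 25.4% and 27.3% in IAPP, 37.4%, 30.1% and 30.4% in urolithin B and 39.6%, 31.9% and 34.9% in control cells. These shares compare libraries for the same genes and are not a ratio of subunits, since tag counts near transcript ends differ in efficiency between genes.

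**Figure D1:**
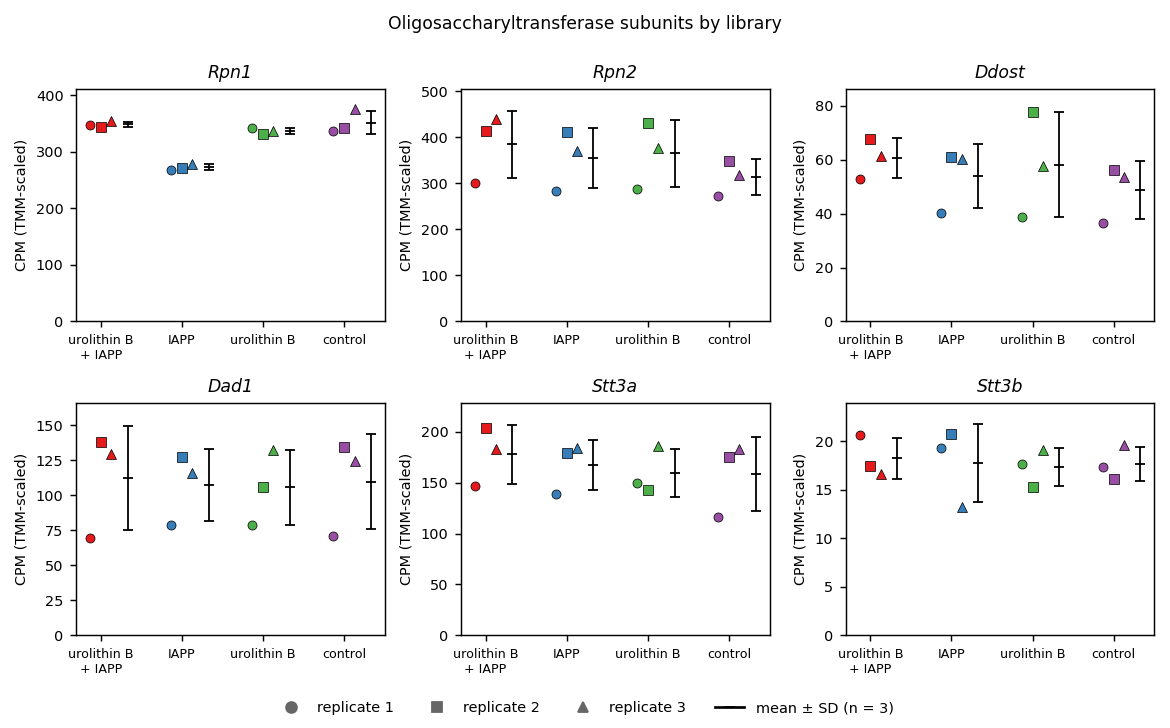
Level of the 6 oligosaccharyltransferase subunits in each library, in CPM after TMM scaling, with a marker per replicate number and the mean ± SD (n = 3) beside it. Rpn1 sits at 268.2 to 279.1 CPM in the 3 IAPP libraries and at 331.9 CPM or more in the other 9, while Rpn2, Ddost and Dad1 are lowest in the replicate 1 library of every group.

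Members that recognise the signal sequence had the lowest sub-list median in IAPP against control, -0.22 over 6 tested members, beside 0.05 over all tested genes. None was called. Srp72, a scaffold protein of the SRP, was at 35.9, 60.6 and 56.3 CPM in urolithin B + IAPP cells, 40.0, 48.2 and 43.7 CPM in IAPP cells, 45.8, 63.6 and 55.7 CPM in urolithin B cells and 45.4, 55.2 and 58.5 CPM in control cells. IAPP was below control in each same-number pair, but the groups overlapped, and the difference was -0.27 ± 0.20 on the log2 scale (edgeR adjusted p = 0.802). Srp9, which belongs to the particle's elongation-arrest domain, was lower in IAPP in 3 of 3 pairs, at -0.35 ± 0.26 (edgeR adjusted p = 0.812, or 0.118 with the block). Srprb, the membrane-anchored receptor subunit, had the largest difference of any member in urolithin B against control, -0.57 ± 0.42, on 18 to 44 counts per library, with an interval of -1.48 to 0.35. It was -0.14 without control replicate 2, where Srprb was at 8.52 CPM, and -0.90 without control replicate 1. Within replicate numbers, the median log2 ratio of these 6 members in IAPP over control was -0.28, -0.18 and 0.08 for numbers 1, 2 and 3, so the direction of the sub-list was not shared by all pairs.

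The translocon members moved less, with a median of -0.03 over 10 members in IAPP against control and 0.09 in urolithin B + IAPP against IAPP. Sec61a1, the pore-forming subunit, was at 191.1, 274.3 and 264.0 CPM in urolithin B + IAPP cells, 178.8, 240.3 and 240.5 CPM in IAPP cells, 212.2, 279.5 and 260.2 CPM in urolithin B cells and 208.8, 300.8 and 245.4 CPM in control cells. It was lower in IAPP than in control in 3 of 3 pairs, by a small step in the pair numbered 3, at -0.20 ± 0.19 on the log2 scale (edgeR adjusted p = 0.918). Sec63, which recruits the ER chaperone BiP to the channel, was also lower in 3 of 3 pairs. Sec62, its partner, reached 315.1 CPM in urolithin B replicate 2, the highest of the 12 libraries, against 140.1 to 232.6 CPM in the other 11. The TRAP subunits Ssr1 to Ssr4 and Tram1, which assist insertion, were not called in any contrast.

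In signal peptidase, Spcs2, an accessory subunit, was at 287.9, 354.6 and 342.5 CPM in urolithin B + IAPP cells, 224.6, 287.2 and 304.9 CPM in IAPP cells, 294.5, 232.7 and 370.1 CPM in urolithin B cells and 266.9, 351.3 and 369.5 CPM in control cells. Each IAPP library was below the urolithin B + IAPP and the control library of its number, while the ranges of the groups overlapped. The log2 fold change of Spcs2 was -0.27 ± 0.19 in IAPP against control (edgeR adjusted p = 0.776, or 0.186 with the block) and 0.27 ± 0.19 in urolithin B + IAPP against IAPP (0.865, or 0.205 with the block). Its interaction was 0.41 ± 0.27, with a 95% interval of -0.18 to 1.00. The catalytic subunits Sec11a and Sec11c were not called.

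The coat genes leaned the other way in IAPP against control, with medians of 0.12 over 8 COPII members and 0.10 over 7 COPI members, beside 0.05 over all tested genes, and none was called. Within replicate numbers 1, 2 and 3 the medians were -0.01, 0.12 and 0.18 for COPII and -0.07, 0.08 and 0.07 for COPI, so the lean was not shared by the pair numbered 1. Sec24d, a cargo adaptor of the inner COPII coat, was at 161.3, 199.8 and 192.9 CPM in urolithin B + IAPP cells, 157.8, 220.9 and 234.8 CPM in IAPP cells, 165.7, 215.3 and 196.6 CPM in urolithin B cells and 144.9, 188.5 and 199.5 CPM in control cells. IAPP exceeded control in each pair, but the ranges overlapped, and the log2 difference was 0.20 ± 0.18 (edgeR adjusted p = 0.888). Sec13 and Sec31a, the outer coat, were higher in 3 of 3 pairs as well. Copa, the alpha subunit of coatomer, had 85.9, 150.8 and 151.1 CPM in IAPP cells against 85.6, 127.0 and 127.5 CPM in control cells. The pair numbered 1 was level and the other pairs were apart, giving 0.19 ± 0.31, and the spread of Copa over replicate numbers was wider than this difference.

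Sec23a, the GTPase-activating subunit of the inner COPII coat, was at 17.5, 18.1 and 16.8 CPM in urolithin B + IAPP cells, 20.4, 17.4 and 18.7 CPM in IAPP cells, 23.2, 18.4 and 23.7 CPM in urolithin B cells and 19.6, 19.4 and 21.0 CPM in control cells. All 3 urolithin B + IAPP libraries were below every urolithin B and every control library. The log2 fold change was -0.32 ± 0.14 in urolithin B + IAPP against urolithin B, with a 95% interval of -0.62 to -0.02, and -0.20 ± 0.14 against control, and neither passed edgeR's adjusted threshold (both adjusted p = 1.00). Sec24c, another cargo adaptor, had 59.1, 89.4 and 92.7 CPM in urolithin B + IAPP cells against 55.9, 55.7 and 72.7 CPM in urolithin B cells, 0.39 ± 0.22 higher on the log2 scale (edgeR adjusted p = 1.00). The pair numbered 1 was nearly level, and the other pairs were apart.

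Sar1b, the GTPase that starts COPII coat assembly, was at 61.3, 62.7 and 75.7 CPM in urolithin B + IAPP cells, 49.1, 58.6 and 58.2 CPM in IAPP cells, 51.1, 54.4 and 69.8 CPM in urolithin B cells and 55.8, 61.8 and 65.2 CPM in control cells. The 3 urolithin B + IAPP libraries were above the 3 IAPP libraries, at 0.27 ± 0.14 (edgeR adjusted p = 0.711, or 0.164 with the block). Cope, the epsilon subunit of coatomer, was at 80.7, 100.7 and 94.4 CPM in urolithin B + IAPP cells, 72.6, 83.9 and 73.3 CPM in IAPP cells, 69.7, 86.0 and 84.8 CPM in urolithin B cells and 68.6, 91.2 and 79.5 CPM in control cells. Each urolithin B + IAPP library of Cope exceeded the other libraries of its number, at 0.26 ± 0.14 against IAPP (edgeR adjusted p = 0.702). Sec13 had 40.4, 43.2 and 45.1 CPM in urolithin B + IAPP cells against 30.7, 39.5 and 40.2 CPM in control cells, with no overlap, a difference of 0.22 ± 0.15 on the log2 scale and an edgeR adjusted p of 1.00.

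Among the receptors, Kdelr1, which returns ER residents that carry the KDEL signal, was at 262.0, 304.5 and 314.1 CPM in urolithin B + IAPP cells, 249.8, 289.7 and 272.5 CPM in IAPP cells, 270.0, 303.1 and 284.9 CPM in urolithin B cells and 248.5, 319.2 and 297.5 CPM in control cells. The groups overlapped, and the log2 fold change was -0.09 ± 0.12 in IAPP against control. Tmed10, a p24 cargo receptor, had 40.0, 56.6 and 55.3 CPM in urolithin B cells against 37.1, 42.8 and 49.2 CPM in control cells, higher in 3 of 3 pairs at 0.24 ± 0.19 (edgeR adjusted p = 1.00). Lman1, the lectin that carries glycoproteins out of the ER, ran from 158.9 to 467.3 CPM, the widest range of the sub-list, and its lowest library was replicate 1 in each group.

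**Figure D2:**
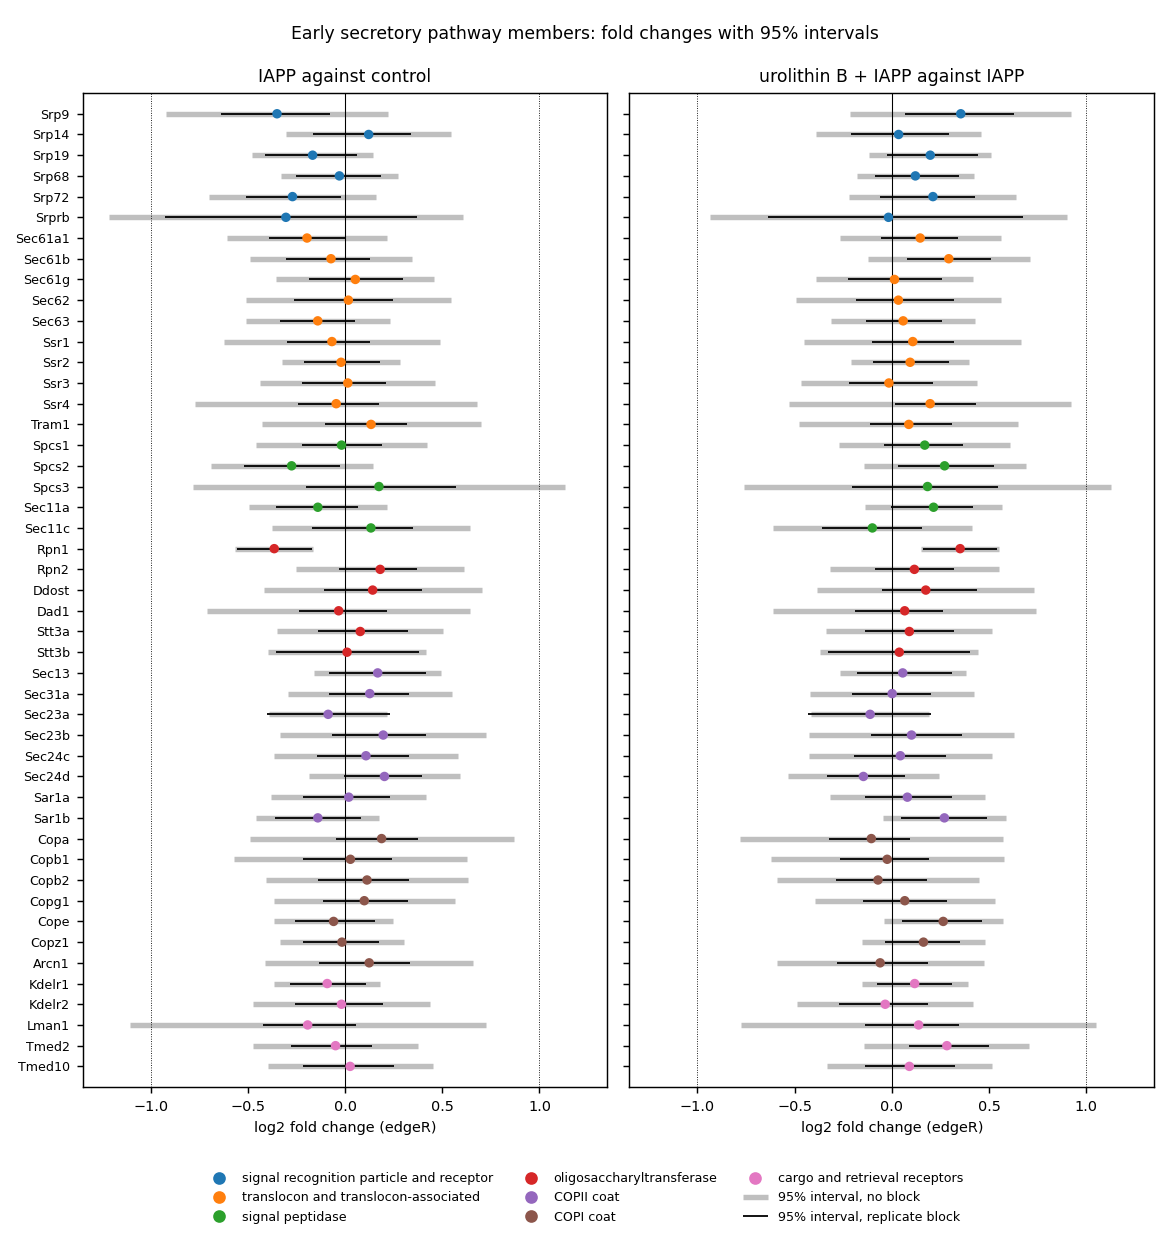
Log2 fold change (edgeR) of the 47 tested members in IAPP against control and in urolithin B + IAPP against IAPP, ordered and coloured by role, with the 95% interval without the block in grey and with the replicate block in black; dotted lines mark 2-fold. The interval of Rpn1 excludes 0 in both panels, at -0.57 to -0.16 and 0.15 to 0.55 without the block.

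The data also bound how large a change could have been missed. In IAPP against control, 44 of 47 members had an unadjusted 95% interval that lay within a 2-fold change, against 58% of all tested genes, and the exceptions were Srprb, Spcs3 and Lman1. The count was 45 of 47 in urolithin B + IAPP against IAPP, against 59.6%, with Spcs3 and Lman1 outside. With the replicate block, 45 of 47 intervals lay within 1.5-fold in each of these comparisons, against 41.9% and 44.6% of tested genes, and Srp9 and Srprb were outside in both. Within 2-fold without the block lay 45 of 47 in urolithin B against control (63.6%), 45 in urolithin B + IAPP against control (62.7%), 45 in urolithin B + IAPP against urolithin B (63.4%) and 40 in the interaction (43.8%). Within 1.5-fold with the block lay 45 (53.6%), 45 (51.6%), 44 (52.9%) and 37 (25.7%) in the same order.

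Counted by libraries that do not overlap, 1 member, Rpn1, was lower in IAPP than in control (7.54% of all tested genes) and 0 were higher (7.74%). Rpn1 and Sar1b were higher in urolithin B + IAPP than in IAPP (6.58%) and 0 members were lower (6.84%). Sec13 was higher (3.79%) and Sec23a lower (3.62%) in urolithin B + IAPP than in control, and against urolithin B Rpn1 was higher (2.94%) and Sec23a lower (2.49%). No member separated urolithin B from control, where 2.22% of tested genes were higher and 2.27% lower. In each case the members' share was below that of all tested genes.

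In IAPP against control the members split evenly around 0, with 23 of 47 log2 fold changes above 0 and a median of -0.02. Over all tested genes 55.8% were above 0, with a median of 0.05. Above the all-gene median of the fit lay 17 of 47 members, again 17 with the replicate block, and 26 with replicates 2 and 3 only. With single libraries left out the count above 0 ran between 8, without control replicate 1, and 33, without IAPP replicate 1 or control replicate 2. Of the 47, 37 were above 0 in urolithin B + IAPP against IAPP, with a median of 0.09, beside 47.9% and -0.02 over all tested genes. With the replicate block it was 38 of 47, and with replicates 2 and 3 only 30 of 47, with a median of 0.04. Leaving out a single library unbalances the replicate numbers: the count was then 16 of 47 (median -0.06) without IAPP replicate 1, 25 without urolithin B + IAPP replicate 3, 28 without urolithin B + IAPP replicate 2, and 44 or 45 without urolithin B + IAPP replicate 1, IAPP replicate 2 or IAPP replicate 3. Against control, urolithin B + IAPP had 37 of 47 above 0 with a median of 0.07 (53.3% of all tested genes above 0), and 35 of 47 above the all-gene median of 0.02. Scaling to the library size alone moved the all-gene median to -0.09, and 32 of 47 members lay above that, while 17 of 47 were above 0. Urolithin B against control had 24 of 47 above 0, a median of 0.01 and a range of -0.57 to 0.35, where 48.8% of tested genes were above 0. The last 2 contrasts had 35 of 47 (urolithin B + IAPP against urolithin B, 54.1% of tested genes) and 33 of 47 (interaction, 49.5%) above 0, and 33 of 47 above the all-gene median in each. With single libraries left out these counts ran between 21 (without control replicate 1) and 43 (without urolithin B + IAPP replicate 1) in urolithin B + IAPP against control, 9 (without control replicate 1) and 39 (without urolithin B replicate 1) in urolithin B against control, 21 (without urolithin B replicate 1) and 43 (without urolithin B + IAPP replicate 1) in urolithin B + IAPP against urolithin B, and 19 (without IAPP replicate 1) and 42 (without urolithin B + IAPP replicate 1) in the interaction.

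Within replicate numbers 1, 2 and 3 the median log2 ratio of the 47 members was -0.10, 0.03 and 0.07 in IAPP over control, 0.13, 0.06 and 0.05 in urolithin B + IAPP over IAPP, and 0.07, 0.11 and 0.12 in urolithin B + IAPP over control. In the same order they were 0.04, -0.07 and 0.07 in urolithin B over control, and 0.01, 0.17 and 0.07 in urolithin B + IAPP over urolithin B. The medians of IAPP over control and of urolithin B over control changed sign between numbers, and the other medians did not. In urolithin B + IAPP over urolithin B, though, the number 1 median of 0.0057 lay below the 0.0145 of all tested genes, with 25 members higher and 22 lower. In IAPP against control, 9 members were higher in all 3 pairs (22.6% of all tested genes) and 8 were lower (19.5%). In urolithin B + IAPP against IAPP, 22 of 47 members were higher in all 3 pairs, against 21% of all tested genes, and 2, Sec11c and Copa, were lower (21%). The 22 came from all 7 roles, and among them were Srp9, Sec61a1, Sec61b, Spcs2, Rpn1, Rpn2, Sar1b, Cope, Kdelr1 and Tmed2. Higher and lower in all 3 pairs were 8 (12.6%) and 2 (11.6%) members in urolithin B against control, 17 (16.9%) and 2 (14.8%) in urolithin B + IAPP against control, and 14 (13.6%) and 4 (11.5%) in urolithin B + IAPP against urolithin B. The counts for IAPP against control and for urolithin B + IAPP against IAPP share the 3 IAPP libraries. Libraries numbered 2 and 3 were no closer within a number (r = 0.444 to 0.637) than across these numbers (0.447 to 0.621). Their pairs follow the labels alone, and swapping them could change these counts.

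**Figure D3:**
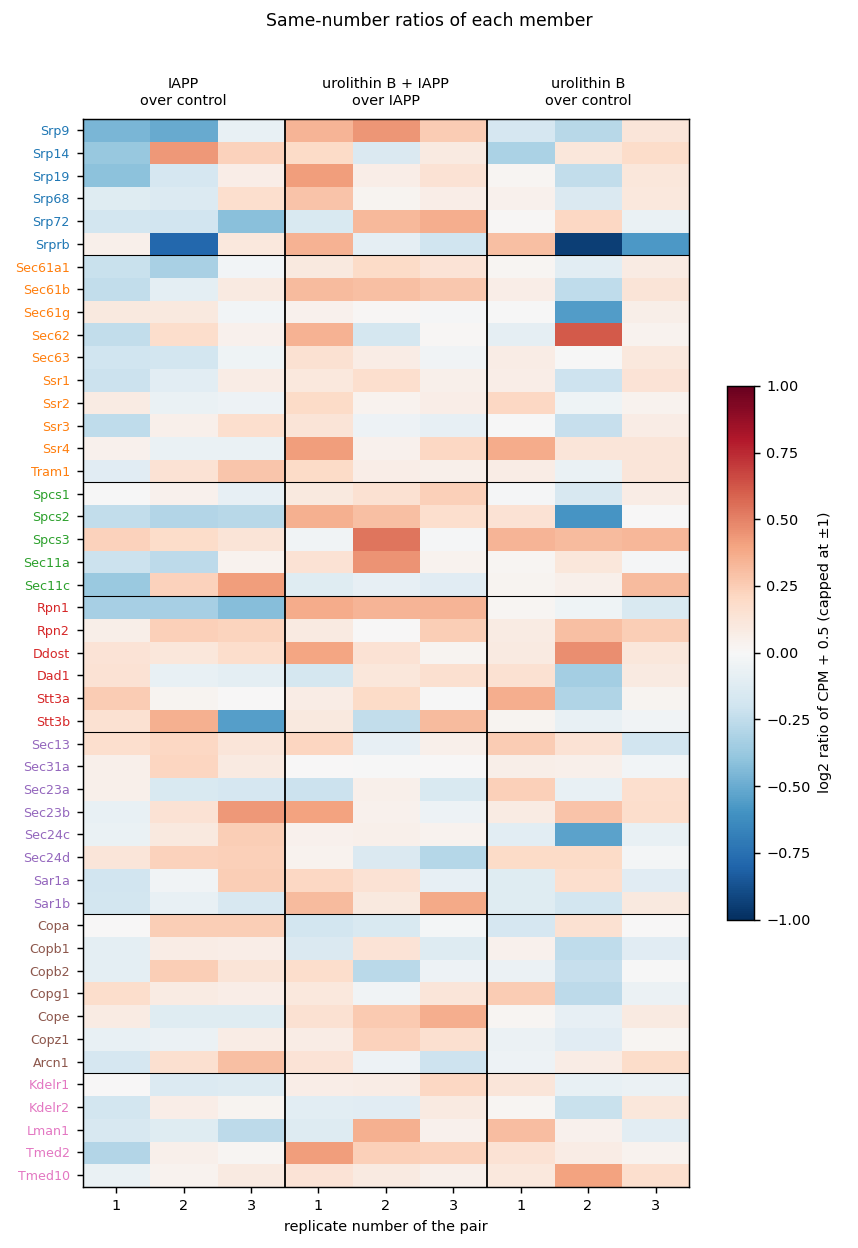
Log2 ratio of each member (CPM + 0.5) between libraries of the same replicate number, for IAPP over control, urolithin B + IAPP over IAPP and urolithin B over control, with rows ordered and labels coloured by role. The Rpn1 row is lower in all 3 IAPP over control pairs and higher in all 3 urolithin B + IAPP over IAPP pairs. The urolithin B over control column for number 2 holds isolated strong cells such as Sec62 and Srprb. Sec62 was high in urolithin B replicate 2 (315.1 CPM) and Srprb in control replicate 2 (8.52 CPM).

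Most of the spread of these genes lay between replicate numbers, and less of it between the 4 groups. After TMM scaling, 45 of the 47 members were lower in the 4 replicate 1 libraries than in the other 8, with a median log2 difference of -0.42, while the median over all tested genes was 0.004. In 29 members the replicate 1 libraries did not overlap the others and were lower (9.47% of all tested genes), and in 0 they were higher without overlap (20.3%). The largest steps were those of Lman1 at -1.04, Spcs3 at -0.89, Ssr4 at -0.84, Copa at -0.77 and Dad1 at -0.75. Stt3b and Sec23a were the 2 members with higher means in replicate 1. Scaled to library totals alone, 27 of 47 members were lower in replicate 1, with a median of -0.03, and 5 were lower and 1 higher without overlap, while the median of all tested genes was 0.38. The members' step is therefore one relative to other genes: 45 of 47 lay below the all-gene median under either scaling. The share of mitochondrial rRNA and the number of genes detected move with this split. So do markers: Ptprc, a leukocyte marker, was at 7.57 to 8.67 CPM in replicate 1 and 0.171 to 2.05 CPM in the rest, Pecam1, an endothelial marker, at 7.88 to 10.4 CPM and 2.22 to 3.47 CPM, and Gcg at 18.5 to 40.4 CPM and 77.4 to 210.6 CPM. Summed over their lists, the 6 stromal, endothelial and immune markers were at 30.2 to 80.6 CPM in replicate 1 and 4.45 to 28.0 CPM in the rest, with 2 of 6 higher without overlap, and the 3 islet hormones had 1 of 3 lower. Exocrine and ductal markers overlapped, and 3 of 14 beta-cell markers, Ins1, Abcc8 and Pcsk2, were lower without overlap. The part of any of these in the split was not tested.

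The median share of variance (log2 CPM after TMM scaling) between replicate numbers was 74.5% over the members and 42.3% over all tested genes. The share between groups was 12.4% over the members and 19.6% over all tested genes. Groups accounted for more variance than replicate numbers in 2 of 47 members, Rpn1 and Sec23a, against 36.3% of all tested genes. For Rpn1 the share between groups was 93.9% and that between numbers 2.85%, and 22 of the 16814 tested genes (0.131%) had a share between groups at least as high. For Sec23a the shares were 55.8% and 15.8%. The summed level of the members was 5196 to 5917 CPM in replicate 1 and 7240 to 8031 CPM in replicates 2 and 3 after TMM scaling. As a share of all counts they took 0.638% to 0.697% in replicate 1 and 0.628% to 0.734% in replicates 2 and 3, which overlap. With mitochondrial rRNA left out of the counts, the shares were 0.696% to 0.745% and 0.794% to 0.851%, which do not overlap. On the TMM scale the lowest of the 12 libraries was IAPP replicate 1 for 22 members, control replicate 1 for 13 and urolithin B + IAPP replicate 1 for 7.

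**Figure D4:**
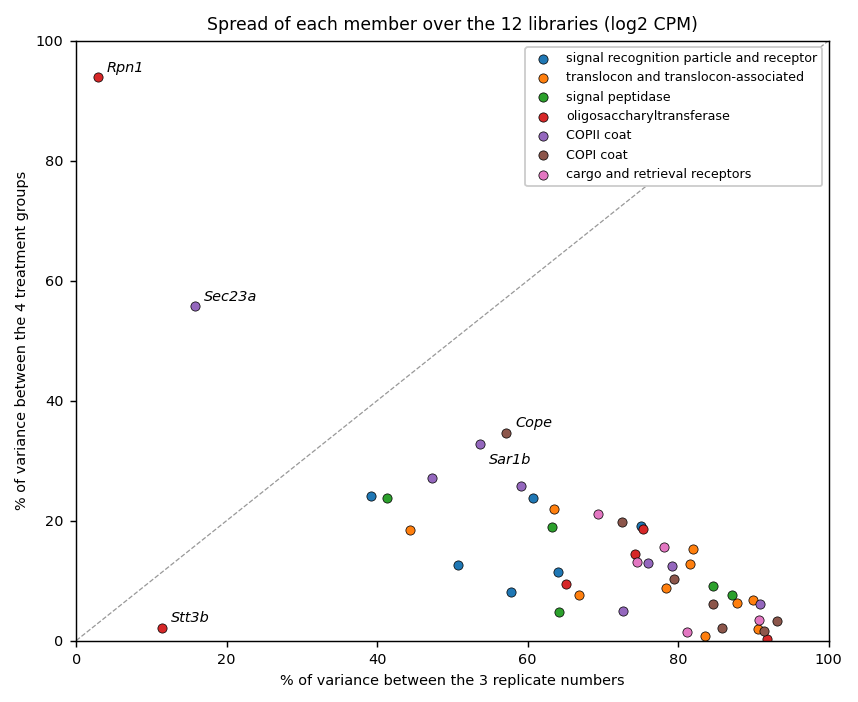
Share of the variance of log2 CPM over the 12 libraries that lies between the 3 replicate numbers (x axis, %) and between the 4 groups (y axis, %), 1 point per member, coloured by role; the dashed line marks equal shares. Rpn1 (93.9% between groups) and Sec23a (55.8%) lie above the line and the other members below it.

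Of the wider pathway, 91 of 97 listed genes were tested: other translocation, oligosaccharyltransferase, COPII, COPI and cargo genes and regulators of secretory capacity. Without the block 0 were called in IAPP against control and 0 in urolithin B + IAPP against IAPP by edgeR, while 9 of 91 (10% of all tested genes) reached an unadjusted p under 0.05 in IAPP against control and 5 of 91 (8.5%) in urolithin B + IAPP against IAPP. In urolithin B + IAPP against IAPP, 63 of the 91 log2 fold changes lay above 0 (47.9% of all tested genes), with a median of 0.08. There 34 of the 91 genes were higher in all 3 same-number pairs and 12 were lower, against 21% of all tested genes each. Blocking on the replicate number, edgeR called 2 higher and 5 lower in IAPP against control, 7 of 91 genes where 7.83% of all tested genes were called. Emc6, a subunit of the ER membrane protein complex that inserts membrane proteins, was at 93.4, 82.3 and 81.0 CPM in urolithin B + IAPP cells, 68.4, 53.4 and 59.8 CPM in IAPP cells, 88.6, 89.3 and 89.0 CPM in urolithin B cells and 95.6, 90.0 and 81.6 CPM in control cells. Like Rpn1, Emc6 was lowest in the 3 IAPP libraries, and its log2 fold change in IAPP against control was -0.56 ± 0.12 (edgeR adjusted p = 0.0541, or 0.000944 with the block, and 0.00105 by DESeq2). Against IAPP, urolithin B + IAPP was at 0.50 ± 0.12 (edgeR adjusted p = 0.120, or 0.00401 with the block).

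Hspa5, the ER chaperone BiP, was at 969.2, 2136 and 1959 CPM in urolithin B + IAPP cells, 768.1, 1352 and 1425 CPM in IAPP cells, 1212, 1623 and 2093 CPM in urolithin B cells and 1116, 2134 and 2024 CPM in control cells. IAPP was the lowest group in every number, at -0.57 ± 0.35 against control on the log2 scale (edgeR adjusted p = 0.706, or 0.00295 with the block). In urolithin B + IAPP against IAPP Hspa5 was at 0.51 ± 0.35 (edgeR adjusted p = 0.857, or 0.0143 with the block). Creb3l2, a transcription factor of the ER membrane known to raise Sec23a in mouse chondrocytes, went the other way, at 39.2, 39.9 and 41.4 CPM in urolithin B + IAPP cells, 49.9, 71.5 and 86.5 CPM in IAPP cells, 40.9, 57.1 and 44.7 CPM in urolithin B cells and 36.0, 47.6 and 46.9 CPM in control cells. IAPP was the highest group in every number, with Creb3l2 at 0.67 ± 0.20 on the log2 scale against control (edgeR adjusted p = 0.181, or 0.00160 with the block). In urolithin B + IAPP against IAPP Creb3l2 was at -0.78 ± 0.20 (edgeR adjusted p = 0.155, or 0.000512 with the block). Gosr1, a Golgi SNARE, was the other gene called higher in IAPP against control with the block, and Sgta, Ostc and Tmed9 were the others called lower. Ostc, a further oligosaccharyltransferase subunit, was at -0.31 ± 0.20 (edgeR adjusted p = 0.741, or 0.0461 with the block). In urolithin B + IAPP against IAPP the block called Gosr1 lower, and it did not call Sgta, Ostc or Tmed9.

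Upstream sequence was examined because several genes of this pathway are known targets of the transcription factors of the unfolded protein response. RefSeq (GRCr8) promoters were at hand for 41 of the 47 tested members and 11326 tested genes, and the 250 bases before the gene start were searched on both strands. The ER stress element, CCAAT and then CCACG after a gap of 9 bases, matched 0 members and 0.141% of all genes, and with the last base free 0 members and 0.327%. Hspa5 and Xbp1 of the other pathway genes held it. Its second form, ATTGG and CCACG with 1 base between them, matched 0 members and 0.0795% of all genes. The motif TGACGTGG matched Copb2, Sec23a and Srp19, 7.32% of members and 0.75% of all genes. The shorter GCCACGT, which overlaps it in part, matched 9 members (22%) and 2.94% of all genes, and 13% of the 77 other pathway genes. The other motifs were CCACGT, which TGACGTGG and GCCACGT both hold on 1 strand (31.7% of members and 9% of all genes), TGACGTCA (2.44% and 2.64%), TGACG (29.3% and 26.4%), ACGTGT (4.88% and 4.94%), GGGCGG (53.7% and 54%) and CCAAT (39% and 34.8%). Median GC content was 59.2% in the members' windows and in those of all genes. GCCACGT was 1 of 11 motifs searched and was set with the matches in view, so these shares are a description.

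Windows of 7 of these 9 members are shown so that the bases around the match can be compared across roles, with GCCACGT or its reverse complement ACGTGGC in capitals, written in the direction of the gene and with GRCr8 coordinates.
Srp19 (chr18:26205707-26205763, plus strand): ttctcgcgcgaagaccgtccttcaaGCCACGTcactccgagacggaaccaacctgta
Sec63 (chr20:47827243-47827290, plus strand): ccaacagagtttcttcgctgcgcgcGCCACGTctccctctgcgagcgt
Ssr1 (chr17:27039138-27039194, plus strand): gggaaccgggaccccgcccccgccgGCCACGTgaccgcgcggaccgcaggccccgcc
Sec31a (chr14:9518655-9518711, plus strand): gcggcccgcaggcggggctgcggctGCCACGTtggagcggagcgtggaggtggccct
Sec23a (chr6:82440962-82441018, minus strand): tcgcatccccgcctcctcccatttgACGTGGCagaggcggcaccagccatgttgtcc
Arcn1 (chr8:53979006-53979062, minus strand): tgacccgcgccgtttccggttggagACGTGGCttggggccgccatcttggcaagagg
Tmed2 (chr12:37722640-37722696, minus strand): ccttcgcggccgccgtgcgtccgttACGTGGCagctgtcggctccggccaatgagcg

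The 9 members with GCCACGT (Arcn1, Sec23a, Sec31a, Sec63, Srp19, Srprb, Ssr1, Ssr3 and Tmed2) had a median log2 fold change of -0.07 in IAPP against control, beside -0.003 in the 32 without it. In urolithin B + IAPP against IAPP the medians were 0.001 with it and 0.12 without it. The ranges overlapped, at -0.30 to 0.13 with it and -0.36 to 0.20 without it in IAPP against control. In urolithin B + IAPP against IAPP they were -0.11 to 0.28 and -0.11 to 0.35. The difference was not tested. Of the 2 members with more variance between groups than between replicate numbers, Sec23a held both GCCACGT and TGACGTGG in its window and Rpn1 held neither. The last 150 bases of Rpn1 before the gene start are shown with a CCAAT box, found in 39% of members and 34.8% of all genes, in capitals.
Rpn1 (chr4:122100826-122100975, plus strand): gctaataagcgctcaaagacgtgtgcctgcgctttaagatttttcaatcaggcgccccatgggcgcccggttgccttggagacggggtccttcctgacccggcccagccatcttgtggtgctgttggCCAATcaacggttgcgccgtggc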

How the data were processed

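For 12 QuantSeq 3prime libraries the authors deposited raw read counts per gene as whole numbers in a single table, which the series text says was later corrected. FastQC, Bowtie2 and SAMtools were used, per the submitters' processing notes. The counter, its handling of strand and of reads that fit several places, the build and the gene models were not given in the sources used here. Replicates are called biological in the labels, which do not say that they were separate cultures, so the p-values cover the spread between libraries, which may be technical.

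Libraries were grouped by title. edgeR 4.0.16 in R 4.3.3 fitted all 12 together (TMM, filterByExpr, quasi-likelihood F-test, Benjamini-Hochberg at 0.05 over 16814 genes); DESeq2 1.42.0 and a replicate block were alternatives. CPM are counts over the tested-gene total times the TMM factor, ± on a fold change is SE, and intervals are unadjusted. The edgeR SE was taken as the absolute log2 fold change over the square root of F. The intervals are built on it, so both are approximate. The script was tested on simulated data. Replicate numbers paired the libraries: deviations from group means correlated at r = 0.444 to 0.888 in all 18 same-number pairs. This rests on replicate 1 (0.844 to 0.888): numbers 2 and 3 correlated with each other at 0.447 to 0.621, as they did within a number (0.444 to 0.637), so the block mainly separates replicate 1.

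Members and lists were chosen with earlier results of these data known. Values per library are given for members called in any fit, the smallest p of each role in IAPP against control and the 3 smallest p of each contrast; Srp9, Dad1 and Sec62 were added after their values were seen. Of the other pathway genes, all within the 4 smallest p of their list, those called with the block in IAPP against control are named.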

Additional observations from a re-analysis of the deposited data

How the results depend on the processing

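The 0 members called by edgeR in IAPP against control and in urolithin B + IAPP against IAPP became 1 each, Rpn1, with the replicate block, with DESeq2 and with DESeq2 and the block, and in the interaction 1 with DESeq2 without or with the block. The replicate block changed no other call of a member. Of other pathway genes, 0 called in IAPP against control became 7 of 91 with the block (7.83% of all tested genes), 1 with DESeq2 (2.97%), 5 with DESeq2 and the block (6.55%) and 4 with replicates 2 and 3 only (754 of 14715 genes), and 0 to 1 when 1 library was left out. In urolithin B + IAPP against IAPP, 0 became 7 (5.24%), 2 (1.9%), 6 (4.41%) and 3 (418 of 14715 genes) under the same settings, and stayed 0 when 1 library was left out. Rpn1 kept its sign under all settings run in IAPP against control, urolithin B + IAPP against IAPP and the interaction. Leaving out 1 library moved the members' median log2 fold change between -0.11 and 0.14 in IAPP against control, -0.06 and 0.24 in urolithin B + IAPP against IAPP, -0.09 and 0.11 in urolithin B against control, -0.02 and 0.24 in urolithin B + IAPP against control, -0.01 and 0.23 against urolithin B, and -0.07 and 0.23 in the interaction. These fits unbalance the replicate numbers. Settings that keep them balanced left the median of urolithin B + IAPP against IAPP above 0, at 0.10 with the block and 0.04 with replicates 2 and 3 only. Depth limits Srprb most, at 18 to 44 counts per library.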
